A study of Mus musculus with 2 samples.

Results

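The RNAs of 4 alarmin cytokines, Il33, Il18, Il1a and Tslp, and of 3 of their receptors, Il1rl1, Il18r1 and Il1r1, were followed by cell type and library in the lungs of mice at postnatal day 10. These 7 genes were taken by symbol, and all 7 are among the 27998 genes of the count matrices. They were chosen by their UMI levels per cell type in these same libraries, so those levels are a description and support nothing. The mutant group is a library whose label names Nkx2-1 together with Aqp5, and the control group is a library labelled control for Nkx2-1. The labels give neither the alleles, the sex nor the number of animals of either group, nor what the control carries. Each group was 1 library, so no replicate error exists and no test between groups is given. The intervals below are exact 95% intervals that cover counting error only.

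Alarmins are cytokines that barrier cells hold or make at short notice and release on injury. IL-33 and IL-1α are active as full-length precursors held in the cell, whereas IL-18 needs to be cut by an inflammasome caspase and TSLP is secreted. IL-33 acts through the receptor encoded by Il1rl1, IL-18 through that of Il18r1 with the partner Il18rap, IL-1α through that of Il1r1 with the partner Il1rap, and TSLP through Crlf2 paired with Il7r. In the lung, type II alveolar epithelial (AT2) cells and stromal cells are known sources of IL-33, and innate lymphoid cells, regulatory T cells and mast cells are known receivers.

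Barcodes numbered 4551 in the mutant and 4461 in the control library, with median depths of 8305 UMIs in the mutant and 5943 UMIs in the control library (unique molecular identifiers, 1 per captured RNA molecule). After filters, 4272 mutant and 4004 control cells were used. The AT1 compartment stands for all epithelium left once AT2-like, ciliated-like and club-like clusters are set aside, which is where type I alveolar epithelial (AT1) cells fall. It held 2243 mutant cells at a median of 12292 UMIs and 561 control cells at 6423 UMIs. The summed level of 12 AT1 markers there was 3278 CPM (counts per 1000000 UMIs of the class) in the mutant and 37690 CPM in the control library, so the mutant cells are called by their compartment and not AT1 cells. Different clusters hold the compartment in the 2 libraries. The mutant cells lay mainly in cluster 1, led by Tff1 and Tff2 (602 cells), cluster 4, led by Sprr1a and Clu (444 cells), cluster 5, led by Gpx2 and Akr1b8 (408 cells), cluster 6, led by Kcne2 and Sfn (374 cells), the cycling cluster 8 (240 cells) and the AT1-like cluster 9 (170 cells). The control cells lay in the AT1-like clusters 2 (508 cells) and 9 (50 cells). AT2-like cells numbered 215 in the mutant and 1257 in the control library. Nkx2-1 itself, the homeobox factor of lung epithelium, stood at 13.5 CPM (421 UMIs) in the mutant and 488 CPM (1863 UMIs) in the control compartment, and at 312 CPM in mutant and 348 CPM in control AT2-like cells. The labels do not say how the gene was altered, so these 3′ counts are no direct check of the alleles. The libraries shared 27 barcodes, 19 of them among cells used.

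Most Il33 UMIs lay in the AT1 compartment in the mutant library and in AT2-like cells in the control library. The mutant compartment held 2639 Il33 UMIs, or 84.7 CPM (81.5 to 88.0), and the control compartment held 1 UMI, or 0.262 CPM (0.00663 to 1.46). The ratio of 324 (58.0 to 12783) rests on that control UMI, and with doublets kept the log2 ratio was 2.99 in place of 8.34. The compartment made up 81.0% of all Il33 UMIs in the mutant library, whereas AT2-like cells made up 97.5% in the control library. The mutant compartment was also 2243 of 4217 cells placed in a class and the deepest class, at a median of 12292 UMIs. Mutant AT2-like cells held 15.8% of the Il33 UMIs and had the higher level, at 308 CPM. At least 1 Il33 UMI was seen in 35.1% of mutant and 0.178% of control compartment cells. With each cell thinned to 1500 UMIs these shares were 10.3% in the mutant and 0% in the control compartment, and 0 of 561 cells allows up to 0.535% of cells with a UMI at that depth, which is no limit on cells that express the gene. In immune cells, which carried little Il33 in either library, the thinned share was 0% in both libraries, at median depths of 5507 UMIs in the mutant and 4804 UMIs in the control library. Set against Sftpc, the surfactant protein C gene of AT2 cells, Il33 stood at 53.2 UMIs per 1000 Sftpc UMIs in the mutant compartment and 0.0220 in the control compartment. In AT2-like cells it stood at 1.60 in the mutant and 0.732 in the control library. Sftpc itself stood at 1592.6 CPM in the mutant and 11892.5 CPM in the control compartment, so these values carry the difference in Sftpc as well as that in Il33. With an estimated share of free RNA subtracted, 2581 mutant and 0 control Il33 UMIs were left in the compartment, a log2 ratio of at least 6.72. That estimate was not itself tested. Over all epithelial cells together, Il33 stood at 94.5 CPM (91.2 to 97.8) in the mutant and 116 CPM (110 to 121) in the control library, a ratio of 0.816 (0.769 to 0.866). The pooled level across the epithelium was therefore lower in the mutant library, while the cells that held most Il33 UMIs differed. AT2-like cells, with the higher level in both libraries, numbered 215 in the mutant and 1257 in the control library. Compartment cells numbered 2243 in the mutant and 561 in the control library. In the compartment and in AT2-like cells taken apart, the level was higher in the mutant library. The part of makeup in the pooled value was not tested.

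Il33 lies at chr19:29925114-29960718 on the plus strand of GRCm38 and has 5 annotated transcripts. The 250 bases before each of its RefSeq starts are shown because most Il33 UMIs lie in different epithelial cells in the 2 libraries. RefSeq (GRCm38.p6) had upstream windows for 6 of the 7 members. Each window was searched on both strands for CTCAAG and CAAGTG, cores bound by NKX2-1 family factors, and for TGANTCA, the core bound by AP-1. CTCAAG occurs in 13.3%, CAAGTG in 11.6% and TGANTCA in 6.75% of 32851 RefSeq windows of the same length. Neither Il33 window holds any of them, which says only that these letters are not in these windows.
Il33, first start, chr19:29924863-29925112, plus strand: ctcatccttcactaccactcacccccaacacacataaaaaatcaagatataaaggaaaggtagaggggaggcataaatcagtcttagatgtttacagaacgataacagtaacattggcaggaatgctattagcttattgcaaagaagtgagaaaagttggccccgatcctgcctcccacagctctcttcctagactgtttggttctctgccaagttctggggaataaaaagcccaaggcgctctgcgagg
Il33, second start, chr19:29945540-29945789, plus strand: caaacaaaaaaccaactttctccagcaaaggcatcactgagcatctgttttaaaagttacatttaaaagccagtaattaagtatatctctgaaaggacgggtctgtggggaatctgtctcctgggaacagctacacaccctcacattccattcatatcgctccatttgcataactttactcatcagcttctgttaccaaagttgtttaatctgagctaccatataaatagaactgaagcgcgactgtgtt

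Among the main clusters of the mutant compartment Il33 was lowest in the AT1-like cluster 9. Cells with an Il33 UMI ran from 14 of 170 in cluster 9 to 134 of 240 in cluster 8. The mutant cells of cluster 9 also held 27243 CPM of summed AT2 markers, beside 19114 CPM of summed AT1 markers. Il33 stood at 129 CPM in the Sprr1a/Clu cluster 4, 117 CPM in the cycling cluster 8, 86.5 CPM in cluster 5, 66.8 CPM in the Tff1/Tff2 cluster 1, 48.0 CPM in cluster 6 and 22.0 CPM in the AT1-like cluster 9. The intervals of clusters 4 (120 to 138) and 8 (107 to 128) overlap, and those of the other neighbours in this order do not. The control AT1-like cluster 9 had 0 Il33 UMIs and the control cluster 2 had 1. A single mutant cell of cluster 4 held 80 Il33 UMIs, the highest count per cell in the compartment.

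AT2-like cells, the main control source, held 308 CPM of Il33 (282 to 336, 516 UMIs) in the mutant and 179 CPM (171 to 188, 1726 UMIs) in the control library. The class ratio was 1.72 (1.55 to 1.90). The ratio was below 1 in each of the 3 AT2-like clusters taken alone. In cluster 7, led by Retnla, Lyz1 and Lrg1, Il33 stood at 330 CPM in 190 mutant cells and 395 CPM in 83 control cells, a ratio of 0.837 (0.726 to 0.967). In cluster 3 it stood at 144 CPM in 15 mutant and 148 CPM in 447 control cells, and in cluster 0 at 96.8 CPM in 10 mutant and 166 CPM in 727 control cells. The class value thus goes with the share of its cells in cluster 7, which is 190 of 215 in the mutant and 83 of 1257 in the control library. Whether mutant AT2-like cells of a given kind differ in Il33 cannot be told apart from that shift in makeup with 1 library a group.

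Outside the epithelium Il33 was found in vessel and stromal types. Venous-like cells held 80.3 CPM (44.9 to 132, 15 UMIs) in the mutant and 57.5 CPM (26.3 to 109, 9 UMIs) in the control library. Adventitial fibroblast-like cells, the stroma around vessels and airways, held 60.4 CPM (36.4 to 94.3, 19 UMIs) in the mutant and 10.2 CPM (2.77 to 26.1, 4 UMIs) in the control library, a ratio of 5.93 (1.97 to 24.0). Smooth muscle-like cells held 17.5 CPM in the mutant and 14.8 CPM in the control library, with overlapping intervals. Mesenchymal cells as a class stood at 6.38 CPM in the mutant and 2.54 CPM in the control library (2.51, 1.40 to 4.66), a log2 ratio of 1.33 that was 0.17 with cells classed one by one and 2.70 with free RNA subtracted. Free RNA was estimated at 2.52% of mutant and 2.72% of control counts, and its part in this class value was not tested.

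**Figure D1:**
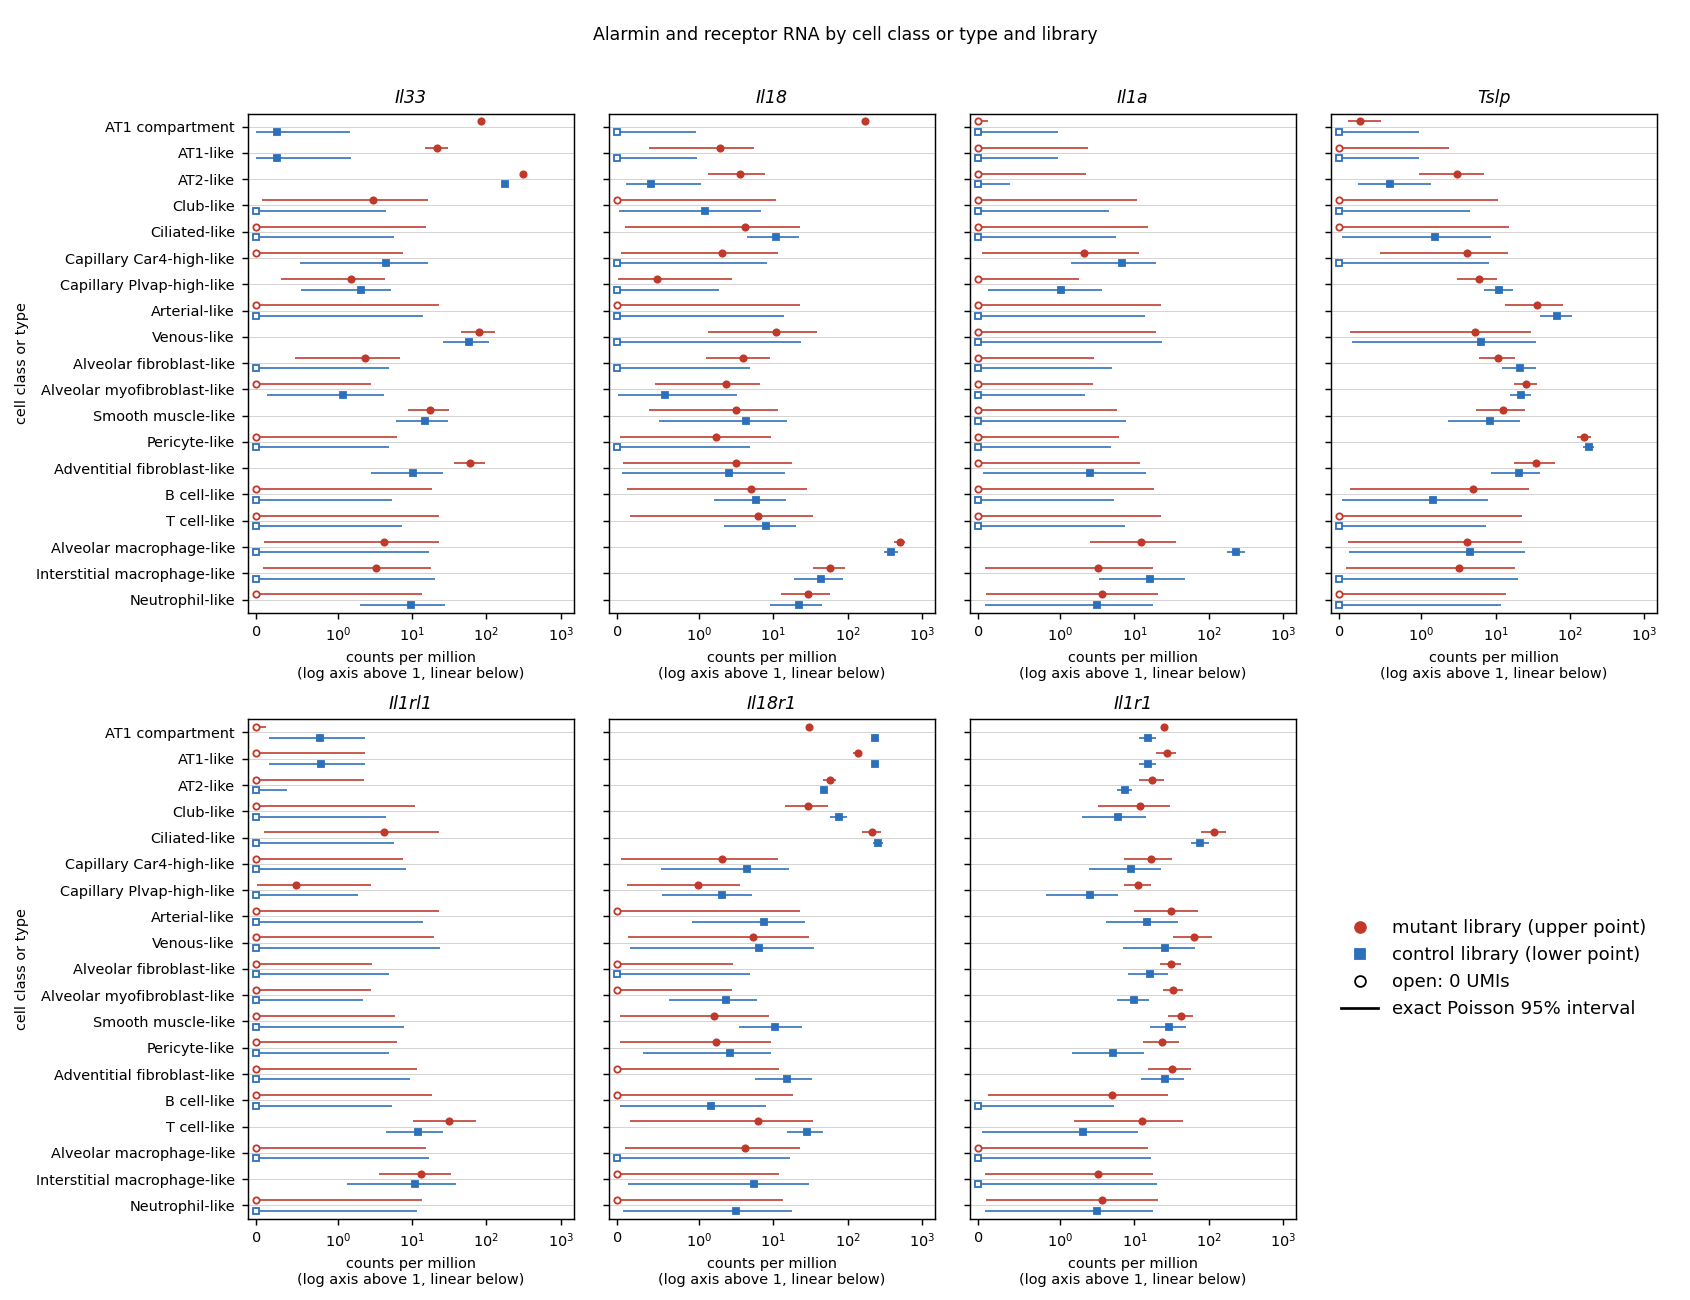
CPM of the 7 members (x axis, log above 1 and linear below) in the AT1 compartment and 18 cell types (y axis), with the mutant library as the upper red point and the control library as the lower blue point. Lines are exact Poisson 95% intervals and open points are 0 UMIs; AT1-like cells are part of the compartment. Il33 and Il18 separate the libraries in the compartment, Il1a in alveolar macrophage-like cells, and Tslp is highest in pericyte-like cells of both.

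Il18 was carried by the compartment in the mutant library and had no UMI in the control compartment. The mutant compartment held 5430 Il18 UMIs, or 174 CPM (170 to 179), and the control compartment held 0 UMIs. With 3 UMIs over the control class as the floor, 0.786 CPM, Il18 was at least 222-fold higher in the mutant compartment. It was seen in 51.5% of mutant cells and 0% of control cells, and after thinning to 1500 UMIs in 17.1% of mutant cells and 0% of control cells, where 0 cells allow up to 0.535% of cells with a UMI. Endothelial cells, not a main source, had a thinned share of 0.207% in the mutant and 0% in the control library. The compartment held 95.7% of Il18 UMIs in the mutant library, while immune cells held 80.1% of the 136 Il18 UMIs of the control library.

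Il18 encodes the precursor of IL-18 and lies at chr9:50554827-50581840 on the plus strand. The 250 bases before its RefSeq start are shown because Il18 and Il33 both separate the libraries in the compartment, and this window holds none of the 3 motifs either.
Il18, chr9:50554450-50554699, plus strand: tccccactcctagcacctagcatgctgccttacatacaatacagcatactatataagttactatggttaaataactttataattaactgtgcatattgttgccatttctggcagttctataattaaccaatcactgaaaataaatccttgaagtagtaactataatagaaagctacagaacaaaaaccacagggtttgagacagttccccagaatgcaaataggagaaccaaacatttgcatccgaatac

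Within the mutant compartment Il18 had a steeper gradient over clusters than Il33. It stood at 360 CPM (348 to 372) in the Tff1/Tff2 cluster 1, where 547 of 602 cells had a UMI. It stood at 181 CPM in cluster 4, 87.1 CPM in cluster 5, 82.8 CPM in the cycling cluster 8, 8.81 CPM in cluster 6 and 1.94 CPM (3 UMIs) in the AT1-like cluster 9. The intervals of clusters 5 and 8 overlap, and those of the other neighbours in this order do not. The 2 clusters with the highest AT1 marker sums in the mutant, cluster 9 at 19114 CPM and cluster 6 at 9844 CPM, were the lowest in both Il18 and Il33.

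Il33 and Il18 were found in the same cells and also apart. Of 2243 mutant compartment cells, 453 had UMIs of both, 334 of Il33 alone, 702 of Il18 alone and 754 of neither. Il18 was seen in 57.6% of cells with Il33 and 48.2% of cells without it, at median depths of 14622 UMIs in the first and 11102 UMIs in the rest, and the part of depth in that gap was not tested. Il18r1 was seen in 21.0% of cells with an Il18 UMI and 36.6% of cells without one, although the first were deeper (14294 and 10280 UMIs).

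In immune cells Il18 was highest in alveolar macrophage-like cells of both libraries. Their level was 502 CPM (417 to 600, 122 UMIs, 45 cells) in the mutant and 390 CPM (312 to 482, 86 UMIs, 41 cells) in the control library, a ratio of 1.29 (0.969 to 1.72). Its log2 value of 0.36 was -0.06 with cells classed one by one. Interstitial macrophage-like cells held 58.2 CPM in the mutant and 43.5 CPM in the control library, and neutrophil-like cells 29.5 CPM in the mutant and 22.1 CPM in the control library, with overlapping intervals. The immune class as a whole stood at 127 CPM in the mutant and 56.8 CPM in the control library (2.23, 1.73 to 2.88), while alveolar macrophage-like cells were 45 of 183 immune cells in the mutant and 41 of 338 in the control library. The summed level of 9 alveolar macrophage markers was 173 CPM in the mutant and 3.67 CPM in the control compartment, with Plet1 at 168 CPM of the mutant sum. Airway cells carried Plet1 too, at 85.7 CPM in the mutant and 76.8 CPM in the control library. The defining macrophage genes Mrc1 (0.514 CPM in the mutant, 0 CPM in the control), Marco (0.128 CPM in the mutant, 0.262 CPM in the control) and Chil3 (0.0963 CPM in the mutant, 0.262 CPM in the control) were near 0 there, and Mrc1 stood at 523 CPM in mutant and 608 CPM in control alveolar macrophage-like cells. The part of macrophage RNA in the Il18 level of the compartment was not tested.

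**Figure D2:**
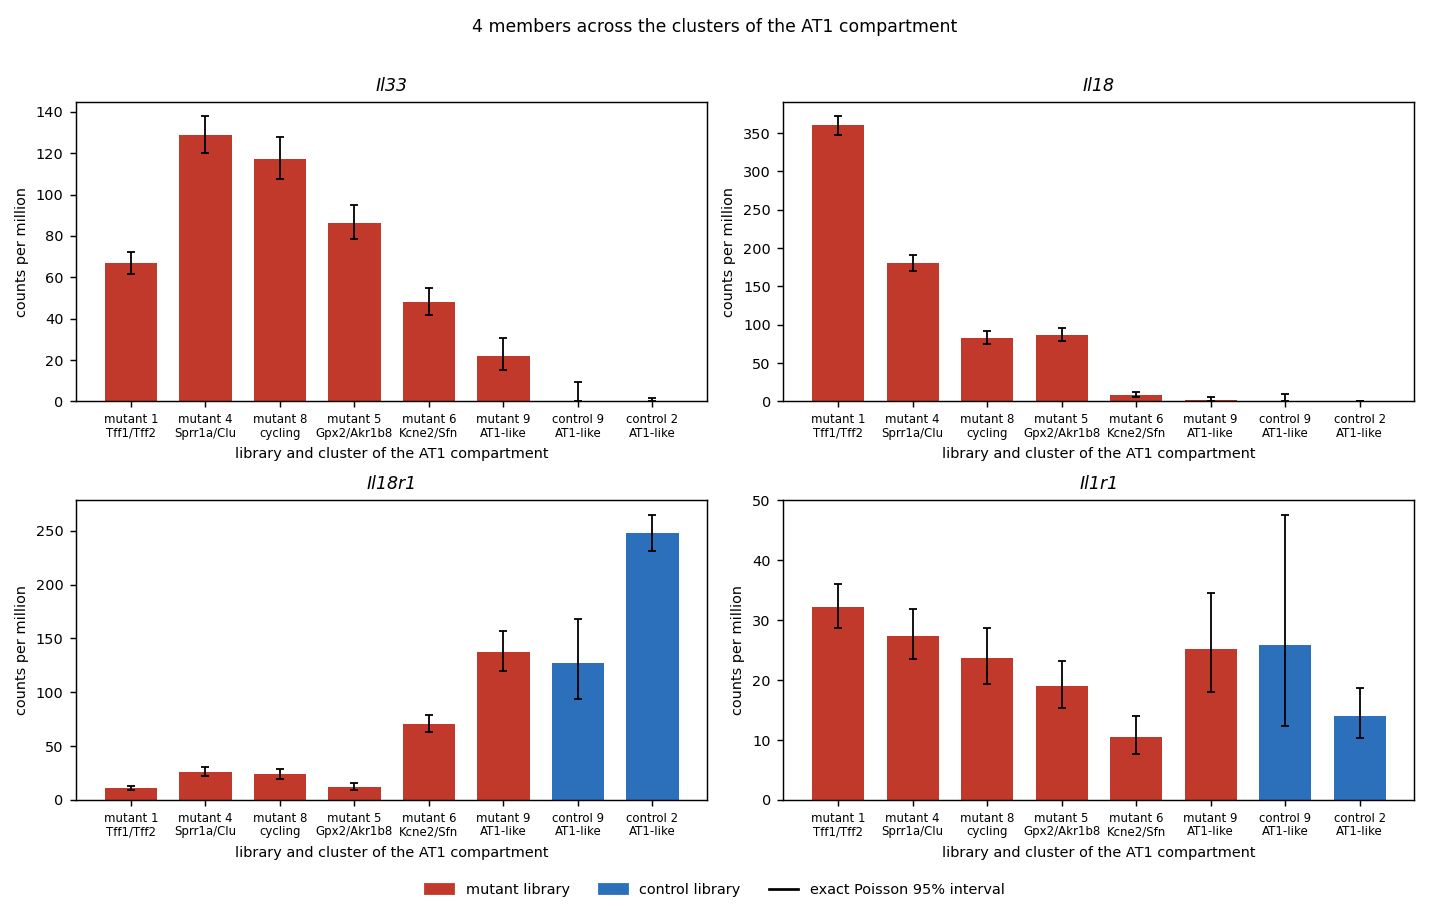
CPM (y axis, from 0) of Il33, Il18, Il18r1 and Il1r1 in the clusters of the AT1 compartment (x axis), mutant clusters in red and the control AT1-like clusters in blue, with exact Poisson 95% intervals; clusters with 5 or fewer cells of a library are not drawn. Il33 peaks at 129 CPM in cluster 4 and Il18 at 360 CPM in cluster 1, while Il18r1 is highest in the AT1-like clusters, at 137 CPM in mutant cluster 9 and 248 CPM in control cluster 2.

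Il1a was no epithelial RNA in these lungs: all epithelial classes held 0 UMIs in both libraries. It was found in alveolar macrophage-like cells, at 12.3 CPM (2.55 to 36.1, 3 UMIs) in the mutant and 236 CPM (176 to 309, 52 UMIs) in the control library. The ratio of 0.0524 (0.0105 to 0.162) is 19.1-fold lower in the mutant library, and it was seen in 6.67% of mutant and 41.5% of control cells of this type, or 2.22% of mutant and 26.8% of control cells after thinning. All cells together held 7 Il1a UMIs in the mutant and 69 in the control library. Values of other early response cytokines stand beside it. Il1b, the gene of the related ligand IL-1β, stood at 78.2 CPM (19 UMIs) in mutant and 671 CPM (148 UMIs) in control alveolar macrophage-like cells, and at 243 CPM in mutant and 1154 CPM in control neutrophil-like cells. The neutrophil-like values leave out clusters set aside as mixed in lineage. The mixed cluster of 51 mutant cells and 1 control cell, whose best match was neutrophils, had Il1b among its leading genes. The mixed cluster of 34 control cells, with the same best match, did not. Outside the immune and epithelial cells Il1b was higher in the mutant library, at 32.7 CPM (94 UMIs) in mutant and 1.06 CPM (3 UMIs) in control endothelial cells, and at 7.69 CPM in mutant and 1.98 CPM in control mesenchymal cells. T cell-like cells held 93.3 CPM of Il1b in the mutant and 42.0 CPM in the control library. Tnf in the immune class stood at 5.92 CPM in the mutant and 104 CPM in the control library. Chil3, an alveolar macrophage marker, was 412 CPM in mutant and 1329 CPM in control alveolar macrophage-like cells, whereas Marco was 218 CPM in the mutant and 231 CPM in the control library. The part of the cells' state or handling in the Il1a value was not tested.

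Il1a lies on the minus strand at chr2:129299610-129309972. Its window, shown because it holds all 3 motifs, carries 1 of each in capitals, CTCAAG being read on the other strand as CTTGAG. Of the 3 Il18r1 windows, 2 also hold 1 CTCAAG each, and they are not printed because they overlap annotated exons.
Il1a, chr2:129309973-129310222, minus strand: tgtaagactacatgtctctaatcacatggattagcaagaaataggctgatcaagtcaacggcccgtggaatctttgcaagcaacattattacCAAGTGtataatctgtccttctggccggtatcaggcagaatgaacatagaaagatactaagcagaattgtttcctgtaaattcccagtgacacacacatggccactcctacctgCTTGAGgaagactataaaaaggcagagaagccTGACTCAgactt

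Tslp, the gene of thymic stromal lymphopoietin, was a stromal RNA here and not an epithelial one. Pericyte-like cells, which wrap capillaries, held 156 CPM (125 to 191, 92 UMIs) in the mutant and 182 CPM (153 to 215, 140 UMIs) in the control library, a ratio of 0.855 (0.650 to 1.12). Its log2 value of -0.23 depended on which cells were named pericyte-like, and lay between -0.66 and -0.06 under the other settings. At resolution 0.5 it was -0.57 (62 mutant and 112 control UMIs). With each library clustered alone it was -0.66, beyond the counting interval. The mesenchymal class held 83.0% of Tslp UMIs in the mutant and 83.2% in the control library, at 31.9 CPM (27.6 to 36.7) in the mutant and 35.1 CPM (30.8 to 39.7) in the control library. Its ratio of 0.910 has an interval of 0.751 to 1.10. Arterial-like cells came next, with 36.7 CPM (13.5 to 79.9, 6 UMIs) in the mutant and 67.4 CPM (39.9 to 106, 18 UMIs) in the control library. Adventitial fibroblast-like cells held 35.0 CPM in the mutant and 20.4 CPM in the control library, with overlapping intervals. The endothelial class stood at 7.31 CPM (21 UMIs) in the mutant and 14.4 CPM (41 UMIs) in the control library, a ratio of 0.506 (0.284 to 0.877). In the compartment Tslp had 8 UMIs in the mutant and 0 in the control library, and in AT2-like cells 5 UMIs (2.98 CPM) in the mutant and 6 UMIs (0.623 CPM) in the control library. Tslp lies on chromosome 18, at 32815383 to 32819797, on the plus strand. Over all cells Tslp stood at 5.31 CPM in the mutant and 10.98 CPM in the control library, with the compartment, which holds few Tslp UMIs, at 2243 of 4217 mutant and 561 of 3964 control cells.

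Of the receptors, Il1rl1 was rare. All cells together held 11 Il1rl1 UMIs in the mutant and 13 in the control library, in 9 cells of each. T cell-like cells held 5 UMIs, or 31.1 CPM (10.1 to 72.6), in the mutant and 6 UMIs, or 12.0 CPM (4.40 to 26.1), in the control library. Interstitial macrophage-like cells held 4 UMIs in the mutant and 2 in the control library. The T cell-like cells with an Il1rl1 UMI numbered 3 in the mutant and 4 in the control library, of which 3 mutant and 3 control cells had a UMI of Gata3, a factor of helper and innate lymphocytes. Other innate lymphoid markers were mixed: Rora in 2 mutant and 3 control cells, Il7r in 2 and 2, Icos in 1 and 2. Klrg1 was in 1 mutant and 0 control cells, and Areg and Arg1 each in 0 mutant and 2 control cells. The regulatory T cell markers Foxp3 and Ctla4 were each in 1 mutant and 0 control cells, and Ikzf2 in 2 mutant and 1 control cell. The kind of these cells was not tested. No UMI of Cd3d, Cd3e or Cd3g was seen in 1 of the 3 mutant and 2 of the 4 control cells. Il5 and Il13, cytokines that IL-33 receivers make, were named after their values were seen. They had 0 UMIs of each in 23 mutant T cell-like cells, and 9 UMIs of Il5 and 6 UMIs of Il13 in 85 control cells of this type. At 5 mutant and 6 control UMIs of the receptor, a difference between libraries was not detectable at this depth.

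Il18r1, the ligand-binding chain for IL-18, was an epithelial RNA in this lung and was lower in the mutant compartment. Its level there was 30.6 CPM (28.7 to 32.6, 953 UMIs) in the mutant and 234 CPM (219 to 250, 894 UMIs) in the control library. The ratio of 0.131 (0.119 to 0.143) is 7.65-fold lower in the mutant library. The thinned share of cells with a UMI was 4.81% in the mutant and 27.3% in the control compartment, and in endothelial cells it was 0.207% in the mutant and 0.17% in the control library. In the AT1-like clusters alone Il18r1 stood at 137 CPM (119 to 156) in the mutant and 236 CPM (220 to 252) in the control library, a ratio of 0.581 (0.498 to 0.675), and over all epithelial cells the ratio was 0.314 (0.290 to 0.339). Within cluster 9, the AT1-like cluster that both libraries share, it stood at 137 CPM (119 to 157) in the mutant and 127 CPM (93.9 to 168) in the control library (1.08, 0.790 to 1.51). The summed AT2 markers of that cluster stood at 27243 CPM in the mutant and 76207 CPM in the control library, and the AT1 markers at 19114 CPM in the mutant and 23051 CPM in the control library. Their part in the cluster's values was not tested. Of the remaining mutant clusters, cluster 6 held 70.5 CPM, cluster 4 26.2 CPM, the cycling cluster 8 23.7 CPM, cluster 5 12.0 CPM and cluster 1 10.8 CPM. Cluster 1, highest in Il18, was thus the lowest in the IL-18 receptor gene, with overlapping intervals between it and cluster 5.

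Other epithelial types carried the receptor RNA as well. Ciliated-like cells were the highest type in both libraries, in the control library with an interval that overlaps that of AT1-like cells, at 213 CPM (159 to 279) in the mutant and 255 CPM (217 to 297) in the control library (0.835, 0.599 to 1.15). AT2-like cells held 57.9 CPM (46.9 to 70.6) in the mutant and 47.9 CPM (43.6 to 52.4) in the control library (1.21, 0.961 to 1.51). Club-like cells held 29.5 CPM (10 UMIs) in the mutant and 76.4 CPM (63 UMIs) in the control library (0.386, 0.176 to 0.757). T cell-like cells, a known receiver of IL-18, held 1 UMI in the mutant and 14 UMIs in the control library. In mesenchymal and endothelial cells the levels were low, with mesenchymal cells at 0.491 CPM in the mutant and 2.69 CPM in the control library and endothelial cells at 1.39 CPM in the mutant and 3.17 CPM in the control library. Il18rap, without which the receptor does not signal, had 5 UMIs in the mutant and 0 in the control compartment, too few to compare.

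Il1r1, the receptor for IL-1α and IL-1β, was higher in the mutant library in the mesenchymal, endothelial and AT2-like classes and in the compartment. In mesenchymal cells it stood at 33.9 CPM (29.4 to 38.8, 207 UMIs) in the mutant and 12.0 CPM (9.60 to 14.9, 85 UMIs) in the control library, a ratio of 2.82 (2.18 to 3.67). Different clusters hold part of that class in the libraries: cluster 1 had 0 mutant and 280 control cells, cluster 2 had 7 mutant and 245 control cells, cluster 3 had 232 mutant and 2 control cells, and cluster 6 had 156 mutant and 1 control cell. In the alveolar fibroblast-like cluster, with 219 mutant and 134 control cells, Il1r1 had 40 UMIs in the mutant and 12 in the control library, a ratio of levels of 1.93 (0.994 to 4.05). Pericyte-like cells held 23.7 CPM in the mutant and 5.20 CPM in the control library. The endothelial class held 16.7 CPM (12.3 to 22.1) in the mutant and 5.98 CPM (3.49 to 9.58) in the control library (2.79, 1.58 to 5.18). Its Plvap-high capillary-like cells held 11.3 CPM in the mutant and 2.54 CPM in the control library and also lay in different clusters, with 245 mutant and 1 control cell in cluster 0, 17 mutant and 188 control cells in cluster 1 and 3 mutant and 169 control cells in cluster 2. In cluster 4, with 67 mutant and 47 control cells, they held 4 UMIs in the mutant and 1 in the control library. AT2-like cells held 17.3 CPM (11.6 to 24.9) in the mutant and 7.37 CPM (5.76 to 9.30) in the control library (2.35, 1.47 to 3.66). Their AT2-like cluster 7 held 190 of 215 mutant and 83 of 1257 control cells, and the part of that makeup in this value was not tested. In the compartment the level was 24.7 CPM (22.9 to 26.5) in the mutant and 15.2 CPM (11.5 to 19.6) in the control library (1.62, 1.24 to 2.16), and within cluster 9 it was 25.3 CPM in the mutant and 25.9 CPM in the control library. By cell type the level was higher in the mutant library in 17 of 17 types with a UMI, of which 5 had a ratio interval above 1. B cell-like, interstitial macrophage-like and neutrophil-like cells held 1 mutant UMI each, so their direction rests on single molecules. Ciliated-like cells had the highest value, at 119 CPM (79.5 to 170) in the mutant and 77.2 CPM (57.3 to 102) in the control library. These intervals overlap those of venous-like cells, at 64.2 CPM (33.2 to 112) in the mutant and 25.6 CPM (6.96 to 65.4) in the control library. In airway cells the direction turned under 2 settings, with a log2 ratio of -0.14 when cells were thinned and -0.49 when cells were classed one by one. The median log2 ratio of all genes lay between 0.05 and 0.19 in the 6 classes.

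**Figure D3:**
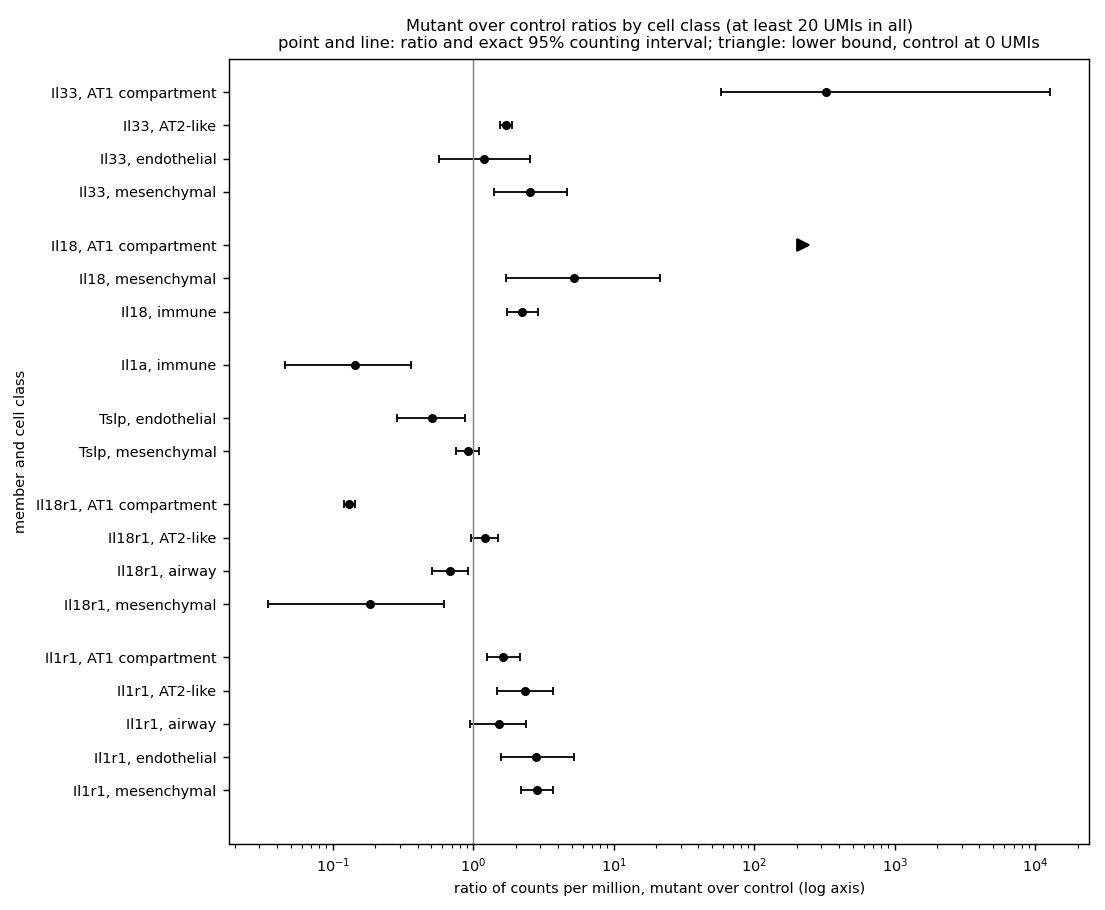
Ratio of CPM, mutant over control (x axis, log scale), for each member and class with at least 20 UMIs (y axis), with exact 95% counting intervals. The triangle is a lower bound for a control class at 0 UMIs. Il1r1 runs from 1.51 in airway, where the interval reaches below 1, to 2.82 in mesenchymal cells, while Il18r1 is at 0.131 in the compartment and 1.21 in AT2-like cells.

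Counted against the background of all genes, 2 of 4 members measured in the compartment were at least 2-fold higher in the mutant library, where 21.9% of 12820 genes were, and 1 was at least 2-fold lower, where 12.2% were. In AT2-like cells 1 of 3 members was at least 2-fold higher, where 7.23% of genes were, and 0 were lower, where 4.93% were. In mesenchymal cells 3 of 5 were higher (6.84% of all genes) and 1 was lower (2.39%), in endothelial cells 1 of 3 was higher (7.23%) and 0 lower (2.07%), in immune cells 1 of 2 was higher (8.58%) and 1 lower (5.46%), and in airway cells 0 of 2 were higher (9.26%) or lower (5.8%). The members were chosen with such ratios known, so nothing is read from these counts.

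The genes of Il1r1, Il1rl1 and Il18r1 lie together on chromosome 1 on the plus strand, within 276 kb, in a row of 7 neighbours that runs Il1r2, Il1r1, Il1rl2, Il1rl1, Il18r1, Il18rap and Slc9a4. Il1rl1 ends 0.137 kb before Il18r1 starts, at chr1:40465552-40500854. In the compartment the neighbours differed in direction between the libraries. Il18r1 was lower in the mutant, whereas Il1rl2, which encodes the IL-36 receptor, was at 4.01 CPM (125 UMIs) in the mutant and 1.05 CPM (4 UMIs) in the control library. Slc9a4, a sodium-proton exchanger gene named here after its values were seen, had 623 UMIs in the mutant and 0 UMIs in the control compartment, at least 25.5-fold higher. It stood at 35.7 CPM in the Tff1/Tff2 cluster 1 and at 0 in both control clusters.

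Partner chains and antagonists of the compartment were read from lists that hold no member. Of 7 partner receptor genes, 3 were measured with at least 20 UMIs, of which 2 were at least 2-fold higher and 1 at least 2-fold lower in the mutant library, where 21.9% of all genes were higher and 12.2% lower by that fold. Crlf2, the TSLP receptor chain, was at 17.5 CPM in the mutant and 3.67 CPM in the control library (4.77, 2.82 to 8.79), while Car4-high capillary-like cells were its highest type in both libraries, at 154 CPM in the mutant and 250 CPM in the control library. Il1rap was at 1.89 CPM in the mutant and 4.19 CPM in the control library (0.452, 0.257 to 0.842). Of 4 decoys and antagonists, 3 were measured and 2 were at least 2-fold higher. Il1rn, which encodes the IL-1 receptor antagonist, had 531 UMIs, or 17.0 CPM, in the mutant and 0 UMIs in the control compartment, at least 21.7-fold higher. Sigirr, an inhibitory receptor of this family, was at 12.2 CPM in the mutant and 3.67 CPM in the control library (3.34, 1.96 to 6.16). Il18bp, which encodes the IL-18 binding protein, was at 1.19 CPM in the mutant and 1.05 CPM in the control library (1.13, 0.407 to 4.38). The median log2 ratio was 1.94 for the partner receptors and 1.74 for the antagonists, against 0.16 over all genes.

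Of 16 signal adaptor genes 15 were measured in the compartment, with 5 at least 2-fold higher and 1 at least 2-fold lower in the mutant library. Among all genes there, 21.9% were higher and 12.2% lower by that fold. The median log2 ratio of the list was 0.44, against 0.16 over all genes. Irak4, a kinase next to the receptors, was at 9.47 CPM in the mutant and 3.40 CPM in the control library (2.78, 1.60 to 5.29). Nfkbiz, an atypical inhibitor of NF-κB that IL-1 induces in epithelium, was at 68.3 CPM in the mutant and 8.12 CPM in the control library (8.41, 5.91 to 12.4). Nfkbia, the NF-κB inhibitor with the highest count of the list, was at 159 CPM in the mutant and 302 CPM in the control library (0.525, 0.492 to 0.560). Nfkbia was lower in the mutant library in other epithelium too, at 57.3 CPM in mutant and 178 CPM in control AT2-like cells and at 44.6 CPM in mutant and 531 CPM in control airway cells. Nfkbiz, higher in the mutant compartment, was lower in mutant AT2-like cells, at 23.9 CPM against 61.9 CPM in the control library (0.386, 0.273 to 0.532). In airway cells Nfkbiz was at 20.6 CPM in the mutant and 37.4 CPM in the control library (0.550, 0.268 to 1.04).

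Of 18 inflammasome and processing genes in the matrix 9 were measured, 2 at least 2-fold higher and 2 at least 2-fold lower, with a median log2 ratio of -0.04. These counts stand beside 21.9% of all genes higher and 12.2% lower by that fold in the compartment. Nlrc4, an inflammasome sensor, had 154 UMIs in the mutant and 0 in the control compartment, at least 6.29-fold higher. Casp1, a caspase that cuts IL-18, named here after its values were seen, had 1 UMI in the mutant and 0 in the control compartment. Casp8 and Pycard of the same list, also named after their values were seen, were well counted. Casp8 was at 28.9 CPM in the mutant and 29.6 CPM in the control compartment (0.975, 0.801 to 1.20). Pycard was at 79.8 CPM in the mutant and 46.6 CPM in the control compartment (1.71, 1.47 to 2.01). Processing of IL-18 was not tested. Capn2, which encodes the large subunit of a calpain protease, was at 66.9 CPM in the mutant and 212 CPM in the control library (0.316, 0.291 to 0.343), and Capns1, the small subunit, at 256 CPM in the mutant and 390 CPM in the control library (0.658, 0.622 to 0.696). S100a13, whose product takes part in the export of IL-1α, was at 141 CPM in the mutant and 402 CPM in the control library (0.352, 0.332 to 0.373).

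Of 12 other epithelial danger signal genes 9 were measured in the compartment, 4 at least 2-fold higher and 0 lower by that fold. Among all genes there, 21.9% were higher and 12.2% lower by that fold. The median log2 ratio of the list was 0.73, against 0.16 over all genes. Areg, a growth factor of the epidermal growth factor family, was at 56.7 CPM in the mutant and 2.88 CPM in the control library (19.7, 10.98 to 39.5). Hmgb1, a nuclear protein that acts as an alarmin when released, was at 877 CPM in the mutant and 571 CPM in the control library (1.53, 1.47 to 1.60). Calr, the gene of the endoplasmic reticulum chaperone calreticulin, was at 401 CPM in the mutant and 471 CPM in the control library (0.852, 0.811 to 0.896). Ccl20, a chemokine of barrier epithelium, had 372 UMIs in the mutant and 0 in the control compartment, at least 15.2-fold higher. In AT2-like cells 1 of 10 measured genes of the list was at least 2-fold higher and 4 were at least 2-fold lower in the mutant library, where 7.23% of all genes were higher and 4.93% lower by that fold. Areg was there at 206 CPM in the mutant and 75.3 CPM in the control library, and Cxcl1, a neutrophil chemokine, at 4.77 CPM in the mutant and 21.5 CPM in the control library. In airway cells 0 of 7 measured genes of the list were at least 2-fold higher and 3 at least 2-fold lower, where 9.26% of all genes were higher and 5.8% lower. Ccl20 went the other way there, with 0 mutant and 142 control UMIs, at least 18.8-fold lower in the mutant library. Cxcl1 had 0 mutant and 211 control UMIs in airway cells. Cytokines of receiving lymphocytes counted 2 measured genes of 10 in the compartment, and the other ligands of the IL-1 family 1 of 6, which was Il1b at 2.73 CPM in the mutant and 3.40 CPM in the control library.

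**Figure D4:**
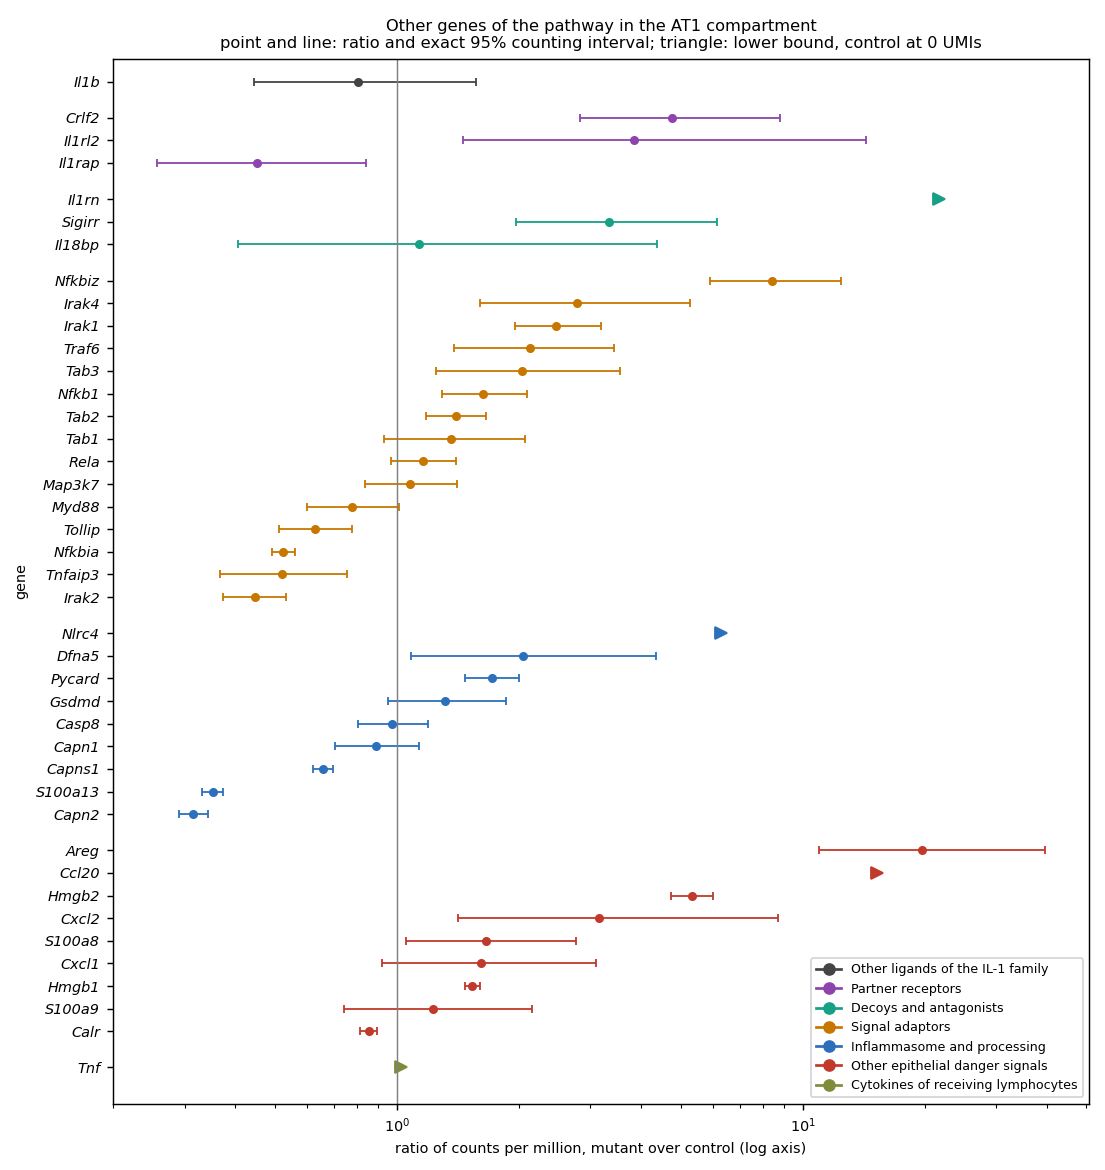
Ratio of CPM, mutant over control (x axis, log scale), for the other genes of the pathway with at least 20 UMIs in the AT1 compartment (y axis), coloured by list, with exact 95% counting intervals; triangles are lower bounds for genes at 0 UMIs in the control library. Areg at 19.7 and Nfkbiz at 8.41 lie far to the right, and Capn2 at 0.316 and S100a13 at 0.352 to the left.

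The genes whose pattern was most like that of each member were found by Pearson's r of log2(CPM + 10) over 22 combinations of cell type and library with at least 50 cells, among 11860 genes with at least 200 UMIs. These points share 2 libraries and their depths, so r is a description. The unnamed compartment clusters are not among them, nor are the alveolar macrophage-like cells, at 45 mutant and 41 control cells. The main Il18 sources of both libraries are thus left out. Among the points used, Il18 reached at most 22.1 CPM (7 UMIs, control neutrophil-like cells), so its r describes low counts only. Il33 was most like Klk13 (r = 0.96), followed by Lamp3, Elf5, Spink5 and Hc. Il18 was most like Glipr1 (0.94), which also stood at 16.3 CPM in the mutant and 0.524 CPM in the control compartment. Il18r1 was most like Prkcz (0.98), which encodes an atypical protein kinase C and stood at 44.7 CPM in the mutant and 119 CPM in the control compartment. Fam187b, Kcnk1 and Il17re were also among the genes most like Il18r1. Tslp was most like Afap1l2 (0.91) and Il1r1 most like Cbx6 (0.89). Il1a and Il1rl1 had too few UMIs for this measure.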

How the data were processed

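The authors deposited raw UMI counts as 1 gene by barcode matrix per library. Sorted lung cells went into 3′ Chromium libraries, per the labels' protocols. The submitters' processing notes name Cell Ranger, Seurat and mm10, and versions and filters were not given in any source at hand. The shallowest barcodes had 3874 UMIs in the mutant and 2278 UMIs in the control library, of 47271104 mutant and 29862980 control UMIs in all.

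Barcodes with under 500 genes (1 in each library) or over 10% mitochondrial counts (132 mutant, 319 control) were left out. Cells were scored against simulated doublets, and the 146 mutant and 137 control cells with the highest scores were removed, at an assumed 0.8% per 1000 cells. Of the simulated doublets, 54.1% in the mutant and 57.5% in the control library scored above those limits, so some doublets stayed in. Cells were clustered with scanpy 1.11.5 and leidenalg 0.10.2 (2000 variable genes, 30 components, 20 neighbours, resolution 1) and again within each lineage, without the members and the pathway lists. A cluster was named where the mean log2 fold of a type's markers reached 1.5 and 3 or more of them were detected in 10% or more of the cluster. A further condition was that no other type of the lineage had more markers among the cluster's 10 leading genes. Mesenchymal cluster 5, with 107 mutant and 96 control cells and smooth muscle as its best match, stayed unnamed by that condition. Lineages were set by immune, endothelial and Epcam levels, a rule chosen after the clusters were seen, and 55 mutant and 40 control cells in mixed clusters were left out.

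CPM is a class's summed UMIs of a gene over all its UMIs, per library. Ratios are mutant over control with conditional binomial intervals, CPM intervals are Poisson, and limits for shares at 0 are 3 counts of the total. The scripts were tested on simulated counts. Named pathway genes had at least 20 UMIs and were, per list, the 2 with the highest counts and the 2 with the largest ratios, apart from genes said to be named after their values were seen, and marker or related genes given beside a result. The result of 1 gene that the likeness rule names is not reported here. Members, markers and pathway lists were chosen with earlier results of these data known. The matrix lacks 10 listed symbols. Results were recomputed under 13 processing alternatives, and under 3 more chosen after seeing the data.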

Additional observations from a re-analysis of the deposited data

Results flagged for a closer look

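Tslp differed in opposite directions between cell classes. Its ratio was 4.79 (1.16 to 18.8) in AT2-like cells, with 5 UMIs in the mutant and 6 in the control library, and 0.506 (0.284 to 0.877) in endothelial cells, with 21 UMIs in the mutant and 41 in the control library. The difference between these ratios was not tested, since each group is 1 library.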

How the results depend on the processing

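No paired analysis was possible because each group is 1 library. As log2 ratios, Il33 in the compartment was 8.34, and it was 2.99 with doublets kept (48 control UMIs in place of 1), 4.25 with single cells classed, 5.12 at resolution 2, at least 4.58 thinned to 1500 UMIs (287 mutant and 0 control UMIs) and -0.29 over all epithelial cells, where AT2-like cells enter. Il33 in AT2-like cells was 0.78, and it was 1.04 thinned, 0.59 less the median of all genes and -0.26 in the cluster with most mutant cells alone, an alternative chosen after seeing the data. Il18 in the compartment was at least 7.79, and at least 5.44 thinned, where fewer counts set a higher floor. Il18r1 in the compartment was -2.94, and it was -2.74 as a mean over cells, -2.65 thinned, -1.67 over all epithelial cells, -3.11 less the median of all genes and -0.78 in AT1-like clusters alone, also chosen after seeing the data. Tslp in mesenchymal cells was -0.14, and -0.51 thinned. Of the main results' other settings, 77 moved by less than the counting interval, as did 93 of the remaining results' settings, while 7 of the remaining ones moved further. Among those 7, Il1r1 in airway cells was -0.49 with single cells classed and -0.14 thinned. The causes were not tested except where stated. Depth limits Il1rl1 and Il1a most, at 11 and 7 UMIs in all mutant cells.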
